A study of Mus musculus with 20 samples.

Results

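The serpins are a family of genes named for serine protease inhibition, and their RNA was followed here in the mouse uterus shortly before embryo attachment. Members were taken from the deposited table as every gene whose symbol is Serpin followed by a clade letter from a to i, a number and an optional last letter, leaving out Serping1, and 63 of the 45777 listed genes met that rule. Uterine RNA of 20 mated B6D2F1 female mice, aged 8 to 12 weeks, was sequenced from 1 horn per mouse, collected at 18:00 on day 3.5, with the morning of the vaginal plug as day 0.5. The 5 mice of the control group had received neither RU486 nor cells. The 5 mice of the IF (implantation failure) group had received 3 mg/kg RU486 under the skin on the morning of day 3.5. RU486 is mifepristone, which blocks the progesterone and glucocorticoid receptors. The PBMC and PBMC-hCG groups, of 5 mice each, received the same RU486, and before it 50000 peripheral blood mononuclear cells from non-pregnant mice into each horn on day 1.5. These cells had been cultured without added hCG for the PBMC group and with 5 IU/mL hCG for the PBMC-hCG group. hCG is human chorionic gonadotropin, a hormone of early pregnancy. RU486, cells and hCG can be told apart only as far as these groups allow, since no group received cells without RU486. No sequenced group received RU486 and an injection of medium without cells, so the injection and the cells cannot be told apart either.

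An inhibitory serpin offers a protease a stretch of its own chain, the reactive centre loop, as bait. The protease cuts the loop, stays bound and is carried across the folded inhibitor, which ends the activity of both. Clade A members are mostly secreted, clade B members mostly stay inside cells, clade E holds inhibitors of plasminogen activators and thrombin, and a few members such as the collagen chaperone Serpinh1 inhibit no protease. In the uterus around implantation, plasminogen activators and their inhibitors act on fibrin and matrix, and leukocyte proteases are held in check by clade B members.

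Values are TPM, a transcript level scaled per length and to a fixed total in each library, so levels can be compared between genes but the number of reads behind a value is unknown. Differences are log2 fold changes on the scale log2(TPM + 0.1), tested with limma over the 18706 genes that were above 0 TPM in all 20 libraries, and adjusted p-values are Benjamini-Hochberg values over all of those genes. A gene was called at an adjusted p under 0.05. Of the 63 serpins, 25 passed that filter, 15 were above 0 in some libraries only and 23 were listed at 0 TPM in every library. In bulk RNA, fewer cells of a type and less RNA per cell cannot be told apart.

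The labelled tissue was checked against marker lists. The 5 markers each of epithelium, stroma and smooth muscle were above 0 in every library. All 4 ovary markers and all 5 mast cell markers were too, so presence alone does not tell tissues apart. Control replicate 2 stood apart. It had a median correlation of 0.963 with the other control libraries, where those had 0.982 to 0.987 within their group. The adipocyte gene Adipoq was at 42.1 TPM in it and at no more than 4.45 TPM elsewhere, the gland protease Prss29 was at 13969 TPM against at most 5831 TPM elsewhere, and the stromal collagen Col1a1 was at 665 TPM against at least 1185 TPM elsewhere. Results that rest on the control group are therefore given without this library too wherever that changed a call.

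Serpin RNA in these uteri was dominated by a few genes. Summed over the family it came to 2614 ± 616 TPM (SD, n = 5) in the control group, 2617 ± 548 TPM in the IF group, 2435 ± 275 TPM in the PBMC group and 2041 ± 220 TPM in the PBMC-hCG group. Serpinh1 alone made up 50.6% of the mean over all mice, and the 5 highest members, Serpinh1, Serpinf1, Serpine2, Serpinb6a and Serpina3n, made up 92.4%. These 5 had means of at least 100 TPM, 4 further members lay between 10 and 100 TPM, 13 between 1 and 10 TPM, and 18 below 1 TPM but above 0.

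**Figure D1:**
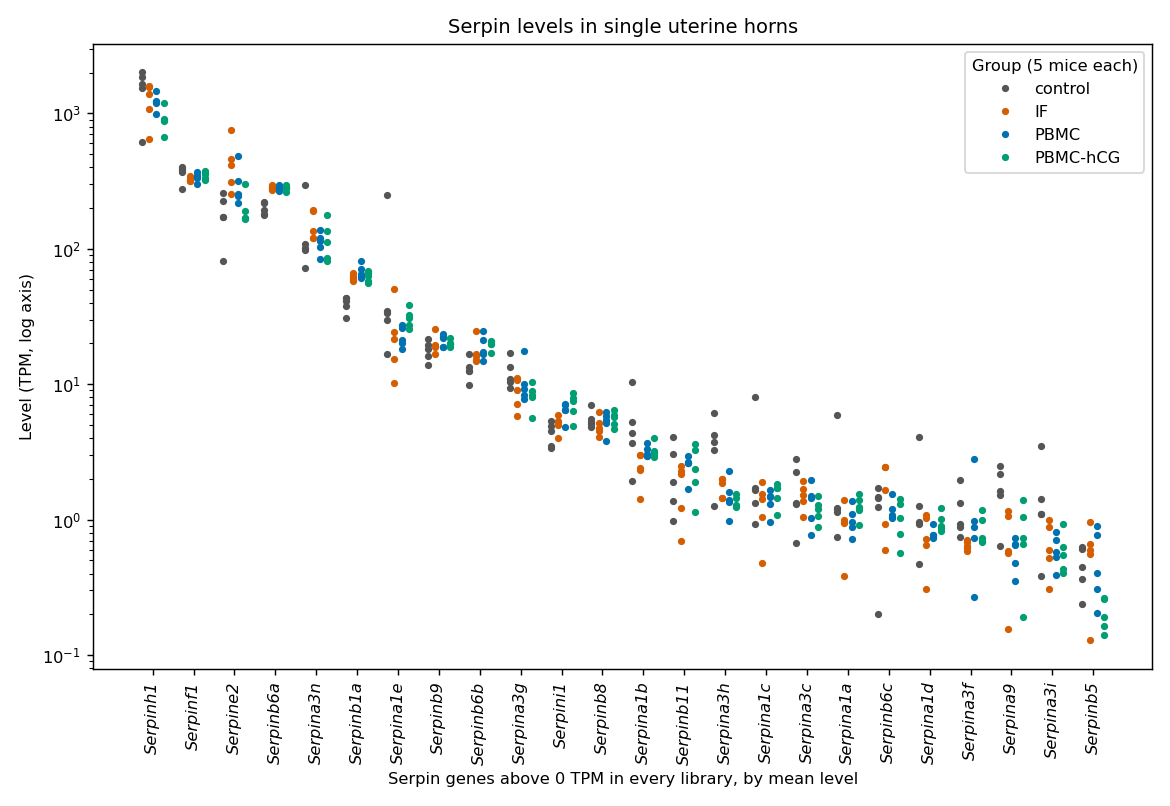
Level in TPM, on a log axis, of 24 of the 25 serpins above 0 TPM in every library, ordered by mean level, with 1 point per mouse and the groups by colour. Serpinh1 is highest at 614 to 2008 TPM, Serpinb6a and Serpinb1a have control points below those of the other groups, and the single high control points of the Serpina1 genes belong to control replicate 2.

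Serpins were called between IF and control mice at about the share seen over all genes, and in both directions. Against control, 5 of 25 tested serpins were called in IF mice, 20% of them, where 21.9% of all tested genes were called. Serpine2, Serpinb6a and Serpinb1a rose, and Serpina3h and Serpina1b fell. The median log2 fold change was -0.17 over the tested serpins and 0.02 over all genes. Groups did not overlap for 3 serpins, Serpinb6a and Serpinb1a above and Serpina3f below control, beside 12.8% of all genes. Serpina3f had an adjusted p of 0.197.

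After cell treatment, 1 serpin differed from the IF group. Between PBMC-hCG and IF, 1 of 25 was called, Serpine2, which was lower, beside 13.6% of all genes. Between PBMC and IF, limma called none of the 25, beside 0% of all genes, and none had an unadjusted p under 0.05, beside 6.79% of all genes. In the direct comparison of PBMC-hCG with PBMC, limma called none, beside 0.0107% of all genes. There 1 serpin, Serpinb5, had an unadjusted p under 0.05, beside 16.2% of all genes. The 3 comparisons with the IF group share the same 5 IF libraries.

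Against control, 6 of 25 serpins were called in PBMC mice, beside 19.5% of all genes, with Serpinb6a, Serpinb1a, Serpinb6b and Serpini1 higher and Serpina3h and Serpina9 lower. In PBMC-hCG mice 5 were called, beside 31.8% of all genes, the same apart from Serpina9. Groups did not overlap for Serpinb6a and Serpinb1a in PBMC mice (12.7% of all genes) and for these and Serpinb6b in PBMC-hCG mice (18.3%). Serpina9, a serpin of germinal-centre B cells, was at 1.69 ± 0.71 TPM in control and 0.573 ± 0.154 TPM in PBMC mice (log2 fold change -1.33, SE 0.45, adjusted p = 0.0432), and that call was lost in 9 of 10 fits that each dropped 1 mouse, all but the one without control replicate 5 (adjusted p up to 0.0965). The summed level of 4 B and plasma cell markers, most of it Jchain, was 73.6 to 241 TPM in control, 3.95 to 159 TPM in IF, 20.9 to 114 TPM in PBMC and 8.07 to 35.8 TPM in PBMC-hCG mice, and its part in the Serpina9 level was not tested. These comparisons share the control libraries with IF versus control. By the rule used in the study, at least 2-fold with a raw p under 0.05, 2 of 25 serpins passed in IF versus control, PBMC-hCG versus IF, PBMC versus control and PBMC-hCG versus control, beside 4.03%, 2.31%, 3.34% and 4.74% of all genes. None passed it in PBMC versus IF or PBMC-hCG versus PBMC, beside 0.438% and 0.893%.

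**Figure D2:**
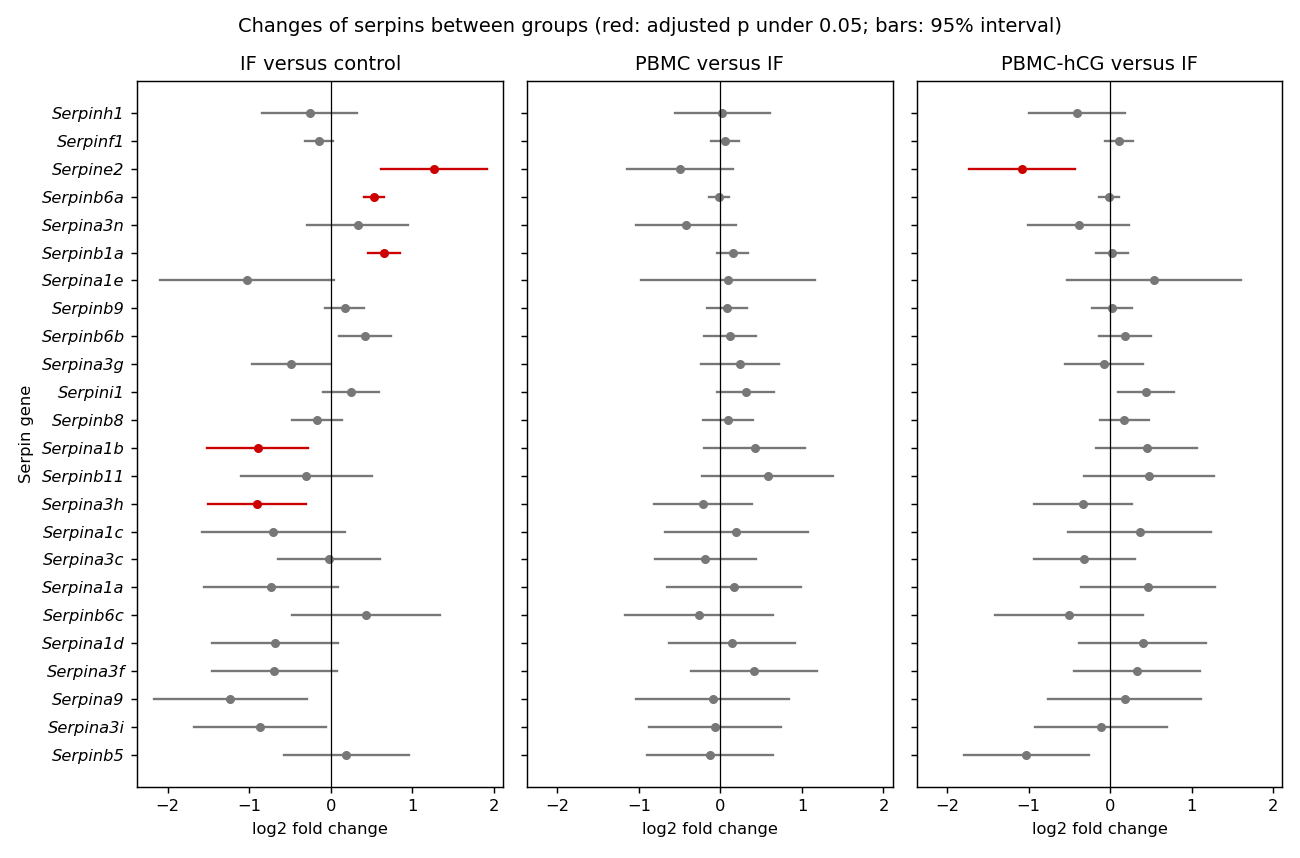
Log2 fold change (horizontal axis) of 24 of the 25 tested serpins in 3 comparisons, with 95% intervals as bars and genes with an adjusted p under 0.05 in red. In IF versus control 5 genes are red, in PBMC versus IF none, and in PBMC-hCG versus IF Serpine2 alone.

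Inhibitors of the plasminogen system came first. Serpine2 encodes protease nexin 1, which inhibits thrombin, urokinase and plasmin at cell surfaces (NCBI gene 20720, mouse GRCm38 chr1:79794317-79858665). Its level in the 5 control mice was 226, 80.9, 173, 173 and 260 TPM, and in the 5 IF mice 311, 457, 254, 417 and 748 TPM. Only IF replicate 3 lay within the control range. IF averaged 437 ± 192 TPM against 183 ± 67.8 TPM (SD, n = 5 per group), which is 1.26 on the log2 scale (standard error, SE, 0.31, adjusted p = 0.00663), and without control replicate 2 it was 0.99 (adjusted p = 0.013).

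With PBMCs, Serpine2 was at 252.02, 245, 315, 216 and 485 TPM, and with hCG-cultured PBMCs at 302, 168, 190, 168 and 165 TPM. The PBMC mice lay across the control and IF ranges, and 4 of the 5 PBMC-hCG mice lay below all IF mice. Against IF the log2 fold change was -0.49 (95% interval -1.14 to 0.16, adjusted p = 0.783) in the PBMC group and -1.08 (SE 0.31, adjusted p = 0.0362) in the PBMC-hCG group. The direct difference between PBMC-hCG and PBMC was -0.59 (95% interval -1.24 to 0.06, adjusted p = 0.335), so the cell treatments were not shown to differ. Against control, the PBMC-hCG group differed by 0.18 (95% interval -0.47 to 0.83, adjusted p = 0.694). The PBMC-hCG value was not called without the filter on low values (adjusted p = 0.0612). It also lost its call in 7 of 10 fits that each dropped 1 mouse, namely IF replicates 2, 4 and 5 and PBMC-hCG replicates 2, 3, 4 and 5, with values of -0.86 to -1.07 and adjusted p-values up to 0.122. In those 7 fits 0 to 34 of all 18706 genes were called, against 2544 with all mice.

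The region just before the start of Serpine2 is shown because the gene moved in both of these comparisons. The run below is the part of the RefSeq promoter (GRCm38.p6, minus strand, chr1:79858697-79858915) that no annotated exon overlaps, and capitals mark the letters GGGCGG, the GC box bound by SP family factors, searched on both strands. It holds 4 matches, of which a pair overlap, in 219 bases with 77.6% G or C. GGGCGG was found in the 250 bases before the start in 32.7% of all 32851 RefSeq promoters and in 7 of 63 promoters of the 54 serpins that have an entry.
Serpine2 promoter: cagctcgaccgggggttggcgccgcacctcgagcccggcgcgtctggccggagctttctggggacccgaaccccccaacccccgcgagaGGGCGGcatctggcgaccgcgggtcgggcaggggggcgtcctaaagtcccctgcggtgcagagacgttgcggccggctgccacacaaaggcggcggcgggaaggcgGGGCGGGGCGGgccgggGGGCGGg

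Serpini1, or neuroserpin, which inhibits tissue plasminogen activator (chr3:75557493-75642523), was at 4.33 ± 0.859, 5.11 ± 0.702, 6.36 ± 0.932 and 7.06 ± 1.46 TPM in control, IF, PBMC and PBMC-hCG mice in that order (SD). It was not called between IF and control (log2 fold change 0.25, adjusted p = 0.318) or between PBMC-hCG and IF (0.44, adjusted p = 0.0712, and 0.56 with adjusted p = 0.0216 without PBMC-hCG replicate 1). Against control it was higher in the PBMC group by 0.55 (adjusted p = 0.0228) and in the PBMC-hCG group by 0.69 (adjusted p = 0.004). The PBMC call was lost without control replicate 5 or PBMC replicate 2 or 4 (adjusted p up to 0.0616). Serpinb2, which encodes plasminogen activator inhibitor type 2, was near the lower end of the table, at 0 to 0.427 TPM in control, 0.235 to 0.715 TPM in IF, 0.252 to 0.488 TPM in PBMC and 0.097 to 0.767 TPM in PBMC-hCG mice. Serpinf2, the plasmin inhibitor alpha 2-antiplasmin, was above 0 in 9 of 20 libraries and never over 0.206 TPM, and Serpina5, the protein C inhibitor, was listed at 0 throughout.

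The serpin partners that were listed for this work, which are target proteases, cofactors and clearance receptors, had 47 of 48 genes in the table and 35 tested. Of these, 11 were called between IF and control, 9 higher and 2 lower, and 5 between PBMC-hCG and IF, 1 higher and 4 lower, which is 31.4% and 14.3% of those tested, beside 21.9% and 13.6% of all genes. None was called between PBMC and IF or between PBMC-hCG and PBMC in limma, where 3 and 5 had an unadjusted p under 0.05, beside 6.79% and 16.2% of all genes. Plau, encoding urokinase, is a target of Serpine2. It was at 20.4, 24.2, 20.3, 24.1 and 33.8 TPM in control mice against 56.6, 78.6, 55.5, 54.8 and 95.8 TPM in IF mice, so the groups did not overlap (log2 fold change 1.46, SE 0.22, adjusted p = 0.000109).

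In the PBMC-hCG group Plau was at 38.9, 24.3, 24.3, 27.6 and 26.4 TPM, below every IF mouse (log2 fold change against IF -1.25, SE 0.22, adjusted p = 0.0218). The PBMC group held 29.2 to 70.3 TPM and overlapped both. IF replicate 5 had the highest IF values of Serpine2, Plau, of the urokinase receptor Plaur (17.7 TPM) and of tissue plasminogen activator Plat (141 TPM), and within the PBMC group the same held for replicate 5, with 485, 70.3, 14.9 and 113 TPM. In control replicate 5 and PBMC-hCG replicate 1, Serpine2, Plau and Plaur were highest of their group, but Plat was not (49.1 and 72 TPM). Plat rose in IF by 0.70 (adjusted p = 0.00585) and was not called between PBMC-hCG and IF (-0.21, adjusted p = 0.384). Plaur was not called between IF and control (0.38, adjusted p = 0.221) and was lower in PBMC-hCG than in IF by -0.78 (adjusted p = 0.0325). With IF replicate 5 or PBMC-hCG replicate 3 left out, limma called 0 of all 18706 genes between PBMC-hCG and IF. The calls of Plau, Plaur and the other partners in that comparison were therefore lost in those fits.

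On the thrombin side, Thbd, which encodes the thrombin receptor thrombomodulin, was at 63.1 to 83.9 TPM in control and 231 to 302 TPM in IF mice (log2 fold change 1.84, SE 0.11, adjusted p = 4.99e-09). It was lower in PBMC-hCG than in IF by -0.43 (adjusted p = 0.0313), at 181 to 242 TPM. That call too was lost without IF replicate 5 or PBMC-hCG replicate 3. F2r, the thrombin receptor PAR1, went the other way in IF, from 117 ± 19.6 to 63.2 ± 17.6 TPM (SD, n = 5 each; log2 fold change -0.92, adjusted p = 0.000672). Thrombin itself (F2) and plasminogen (Plg) were not among the genes above 0 in all libraries.

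**Figure D3:**
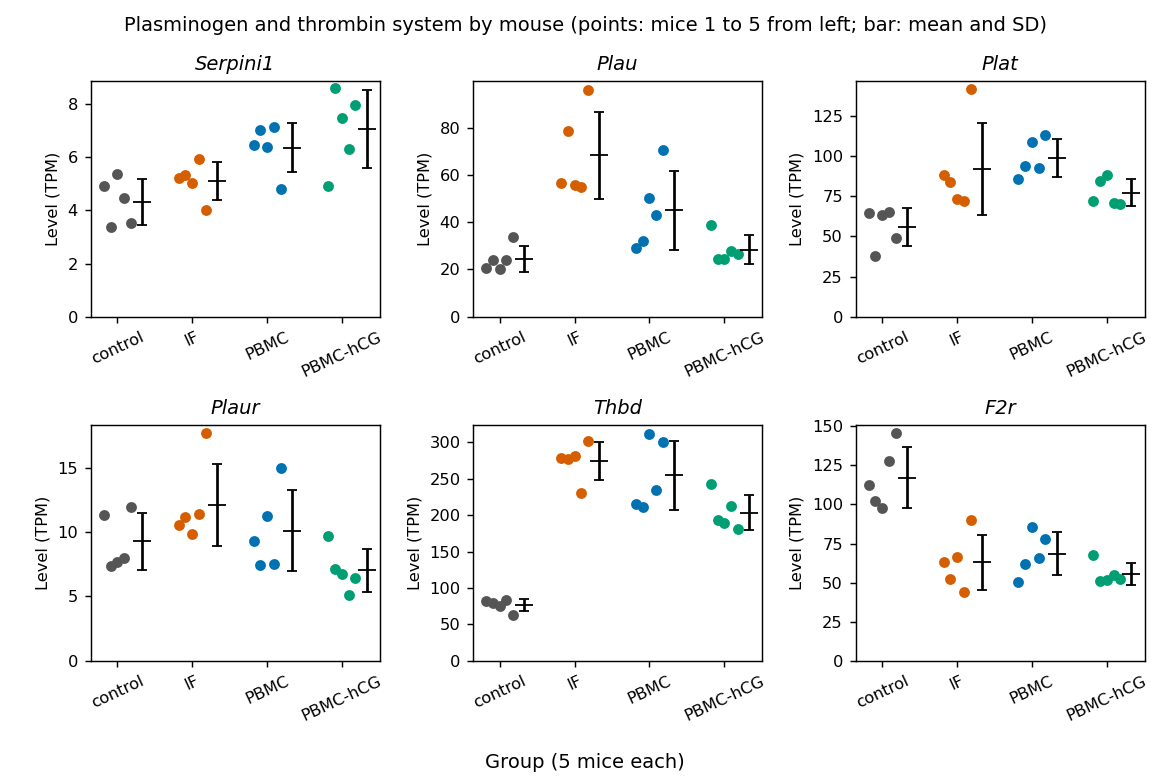
Level in TPM of Serpini1 and of 5 genes from the partner list in each mouse, with points for mice 1 to 5 of each group from left to right and a bar for the mean and SD. Plau and Thbd separate IF from control, Plau of all PBMC-hCG mice lies below the IF points, and Serpini1 of the IF mice overlaps control.

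The plasma inhibitors of clotting were nearly absent from uterine RNA. Antithrombin (Serpinc1) was above 0 in 11 libraries and at most 0.149 TPM, heparin cofactor II (Serpind1) above 0 in 16 and at most 0.529 TPM, and the protein Z-dependent inhibitor (Serpina10) above 0 in 8 and at most 0.249 TPM. The liver gene Alb, measured in the same libraries, was at 0 to 0.518 TPM. For these 3 genes and Serpinb2, Serpinf2 and Serpinb9b, 24 exact permutation tests (two-sided, 5 mice against 5) gave unadjusted p-values from 0.0238 upward, where the smallest possible is 0.00794. The lowest was for Serpinb9b between PBMC-hCG and IF, and in a limma fit with no filter on low values that difference had an adjusted p of 0.132. The same fit called Serpind1 between PBMC-hCG and control, at 0.234 ± 0.103 against 0.0426 ± 0.0475 TPM (log2 fold change 1.24, adjusted p = 0.0361).

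The mostly secreted clade A inhibitors sit side by side on chromosome 12, where 24 members lie within 798 kb (chr12:103616675-104414334), and 12 of them were tested. Between IF and control, 11 of the 12 had a log2 fold change below 0, with a median of -0.72, and 2 were called, both lower. Between PBMC-hCG and IF, 7 were above 0 and 5 below, with a median of 0.26 and none called. A cluster on chromosome 13 (chr13:32842092-34002794), holds 16 clade B members. All 5 of its tested members had values above 0 between IF and control, with a median of 0.44, and 2 were called, both higher. On chromosome 1 another cluster of 12 clade B members (chr1:106861175-107608978) had 3 tested and none called. These directions are counts of neighbouring and partly near-identical genes, and no test was made over them.

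**Figure D4:**
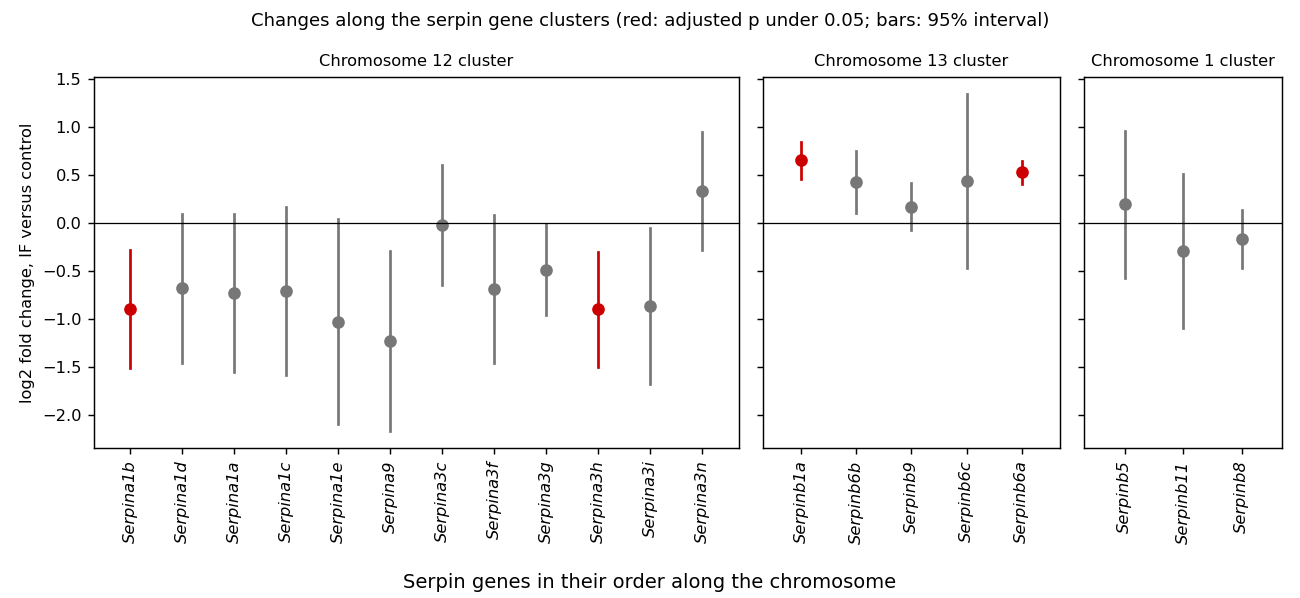
Log2 fold change between IF and control (vertical axis) of tested serpins in their order along 3 gene clusters, with 95% intervals as bars and genes with an adjusted p under 0.05 in red. On chromosome 12 all points but Serpina3n lie below 0, on chromosome 13 all lie above 0, and on chromosome 1 the intervals of all 3 genes span 0.

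Alpha 1-antitrypsin, the plasma inhibitor of neutrophil elastase, is encoded in the mouse by the paralogs Serpina1a to Serpina1e. Their coding sequences are 91.4% to 96.7% identical in GENCODE transcripts, counted over the longer of each pair. Serpina1a has 1308 coding bases there against 1239 in the others, which are 96.3% to 96.7% identical among themselves. Between 14.4% (Serpina1e) and 58.5% (Serpina1c) of the windows of 100 bases in a member's transcripts also occur in another gene. Reads from such windows cannot be assigned from their letters, so the split between these 5 genes is uncertain. The 60 coding bases at which they differ most are shown because they are what tells the paralogs apart. They lie close to the 3′ end of the coding sequence, in the stretch that encodes the reactive centre loop, on the minus strand of GRCm38 (Serpina1a at chr12:103853757-103853816, Serpina1b at chr12:103728324-103728383, Serpina1c at chr12:103895094-103895153, Serpina1d at chr12:103763762-103763821, Serpina1e at chr12:103947100-103947159). Capitals mark the 18 positions at which the 5 genes are not all alike. Serpina1e, the member with by far the most RNA here, differs from the others at 10 to 12 of the 60 bases.
Serpina1a: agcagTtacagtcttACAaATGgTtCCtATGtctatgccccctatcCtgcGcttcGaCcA
Serpina1b: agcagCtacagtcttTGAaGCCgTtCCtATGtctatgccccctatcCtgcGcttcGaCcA
Serpina1c: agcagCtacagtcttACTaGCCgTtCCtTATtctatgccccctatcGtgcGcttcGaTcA
Serpina1d: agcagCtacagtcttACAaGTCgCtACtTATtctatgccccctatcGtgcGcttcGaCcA
Serpina1e: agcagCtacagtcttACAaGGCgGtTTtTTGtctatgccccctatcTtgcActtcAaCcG

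Serpina1e was at 30, 248, 33.8, 34.7 and 16.7 TPM in the mice of the control group, 21.5, 15.4, 50.7, 24.1 and 10.1 TPM in IF mice, 18.3 to 27.6 TPM in PBMC mice and 25.4 to 38.2 TPM in PBMC-hCG mice. It is described because of the control replicate 2 value, which was seen first. All 5 paralogs had their highest value of the 20 in that library, among them Serpina1a at 5.91 TPM against at most 1.56 TPM elsewhere and Serpina1b at 10.5 TPM against at most 5.28 TPM elsewhere. This is the library with the high Prss29 and Adipoq. IF replicate 3, with the highest Serpina1e of its group, also had the highest Prss29 of its group (5831 TPM), but Adipoq at 0. The match did not hold throughout, since control replicate 5 and IF replicate 5 had the second highest Prss29 of their groups (3408 and 3099 TPM) and the lowest Serpina1e. The part of glands or fat in these levels was not tested.

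Serpina1b was the called paralog between IF and control, at 5.28, 10.5, 4.4, 3.71 and 1.94 TPM in control and 2.99, 2.31, 2.99, 2.42 and 1.42 TPM in IF mice. The IF values lay within or below the control range. IF averaged 2.43 ± 0.646 TPM against 5.16 ± 3.21 TPM (SD), a difference of -0.90 on the log2 scale (SE 0.30, adjusted p = 0.0351), and without control replicate 2 it was -0.60 (adjusted p = 0.0722). The call was also lost without control replicates 1 and 3 and IF replicates 2, 4 and 5, and without the filter on low values, in a fit on these groups alone, and with the 5 paralogs summed, where the level was 84.2 ± 108 TPM in control and 29.8 ± 17.2 TPM in IF (adjusted p = 0.151). Serpina1a went from 2.05 ± 2.17 to 0.933 ± 0.36 TPM (log2 fold change -0.73, 95% interval -1.55 to 0.09, adjusted p = 0.202).

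The promoter of Serpina1b is printed because the 5 paralogs moved together in control replicate 2 and share this region, which is 72.4% to 93.2% identical between them over 250 bases. It is the RefSeq sequence of the 250 bases before the start (GRCm38.p6, minus strand, chr12:103738190-103738439), and capitals mark the only match on either strand to AGAACA, the hexamer bound by progesterone and glucocorticoid receptors (read here as TGTTCT). All 5 Serpina1 promoters hold this hexamer, as do 21 of the 63 serpin promoters and 16.1% of all RefSeq promoters.
Serpina1b promoter: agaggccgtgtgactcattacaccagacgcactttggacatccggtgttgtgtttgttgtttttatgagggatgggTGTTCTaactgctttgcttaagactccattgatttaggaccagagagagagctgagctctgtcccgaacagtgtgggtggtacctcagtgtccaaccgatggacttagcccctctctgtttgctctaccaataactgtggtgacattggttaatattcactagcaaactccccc

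The Serpina3 genes, mouse relatives of human alpha 1-antichymotrypsin, were led by Serpina3n, an inhibitor of granzyme B and other leukocyte proteases (NCBI gene 20716, chr12:104406646-104414334). It was at 97.5, 72.4, 102, 108 and 294 TPM in control mice against 119, 136, 194, 120 and 191 TPM in IF mice, with control replicate 5 the highest of all 20. The PBMC group held 83.4 to 137 TPM and the PBMC-hCG group 80.8 to 179 TPM. It was called in no comparison, and IF differed from control by 0.33 (95% interval -0.29 to 0.95, adjusted p = 0.47). Without control replicate 5 it was higher in IF by 0.66 (SE 0.22, adjusted p = 0.0412).

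Serpina3h, annotated as a transcribed pseudogene (chr12:104247896-104254405), was at 4.21, 1.27, 3.24, 3.72 and 6.08 TPM in control and 1.43, 1.99, 1.86, 1.44 and 2.01 TPM in IF mice. All control mice but replicate 2 lay above all IF mice. The log2 fold change was -0.90 (SE 0.29, adjusted p = 0.0296) and -1.23 without control replicate 2 (adjusted p = 0.000247). It was not called without the filter on low values or in a fit on these groups alone. The call was also lost without control replicate 1, 3, 4 or 5 or without IF replicate 1 or 4. Adjusted p-values in these limma fits went up to 0.106. Against control it was also lower in the PBMC group by -1.12 (adjusted p = 0.0093) and in the PBMC-hCG group by -1.23 (adjusted p = 0.0033), and these comparisons share the control libraries. The PBMC call was lost in a fit on these groups alone (adjusted p = 0.0678).

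Only 3.6% of the 100-base windows of Serpina3h occur in another gene. With its neighbours Serpina3f to Serpina3j summed, the level was 18.7 ± 5.37 TPM in control and 11.8 ± 2.41 TPM in IF mice (log2 fold change -0.63, SE 0.22, adjusted p = 0.0466). Against control the sum was lower in PBMC-hCG by -0.71 (adjusted p = 0.0187) and not called in PBMC (-0.45, adjusted p = 0.167). Serpina3g, which inhibits lysosomal cathepsins inside cells, averaged 12.3 ± 3.07 TPM in control mice against 8.78 ± 2.25 TPM (SD) in the IF group, a difference of -0.49 that was not called (adjusted p = 0.14). Without control replicate 2, Serpina3i was called as well, lower in IF by -1.22 (adjusted p = 0.0111), where the fit on all mice gave -0.87 (adjusted p = 0.12). Also without that library, Serpina3i was lower than control in PBMC by -1.29 (adjusted p = 0.00891) and in PBMC-hCG by -1.33 (adjusted p = 0.00432), and Serpina3g in PBMC-hCG by -0.65 (adjusted p = 0.0382).

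The clade B inhibitors Serpinb6a and Serpinb1a gave the clearest separation. Serpinb6a inhibits cathepsin G and trypsin-like proteases inside cells (NCBI gene 20719, chr13:33917918-34002794). It was at 178, 220, 192, 180 and 218 TPM in control and 282, 272, 288, 277 and 298 TPM in IF mice, and the groups did not overlap. The means were 198 ± 20.2 and 283 ± 10.1 TPM (SD, n = 5 each), or 0.52 on the log2 scale (SE 0.06, adjusted p = 4.54e-06).

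With cells, Serpinb6a was at a similar level to IF, at 281 ± 11.6 TPM in the PBMC and 282 ± 12.2 TPM in the PBMC-hCG group. Against IF the log2 fold change was -0.01 (95% interval -0.14 to 0.11) in the PBMC group and -0.01 (-0.13 to 0.11) in the PBMC-hCG group. Against control both cell groups were higher without overlap, by 0.51 (adjusted p = 7.88e-06) and 0.52 (adjusted p = 6.4e-06).

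Serpinb1a, the intracellular inhibitor of neutrophil elastase and cathepsin G (NCBI gene 66222, chr13:32842092-32853206), was at 43.3, 41.4, 43.3, 37.7 and 30.9 TPM in control and 57.7, 63, 60.6, 58.9 and 66.5 TPM in IF mice, again without overlap. The log2 fold change was 0.65 (SE 0.09, adjusted p = 5.86e-05). It was at 61.2 to 81.4 TPM in PBMC mice and 56 to 68.5 TPM in PBMC-hCG mice, and no difference from IF was called (log2 fold changes 0.15, 95% interval -0.04 to 0.34, and 0.02, -0.17 to 0.21). Both calls of Serpinb1a and Serpinb6a in IF held without any single mouse.

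Marker levels moved beside these genes. The summed level of 5 epithelial markers was 485 to 859 TPM in control, 722 to 931 TPM in IF, 805 to 1044 TPM in PBMC and 859 to 1139 TPM in PBMC-hCG mice, and that of 4 endothelial markers was 247 to 333, 385 to 413, 374 to 430 and 411 to 468 TPM. The 5 neutrophil markers summed to 75.2 to 172 TPM in control and 104 to 210 TPM in IF mice, most of it Retnlg, while S100a8 stayed at or under 10.3 TPM and S100a9 at or under 14.4 TPM. The part of cell makeup in the rise of Serpinb1a and Serpinb6a was not tested.

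**Figure D5:**
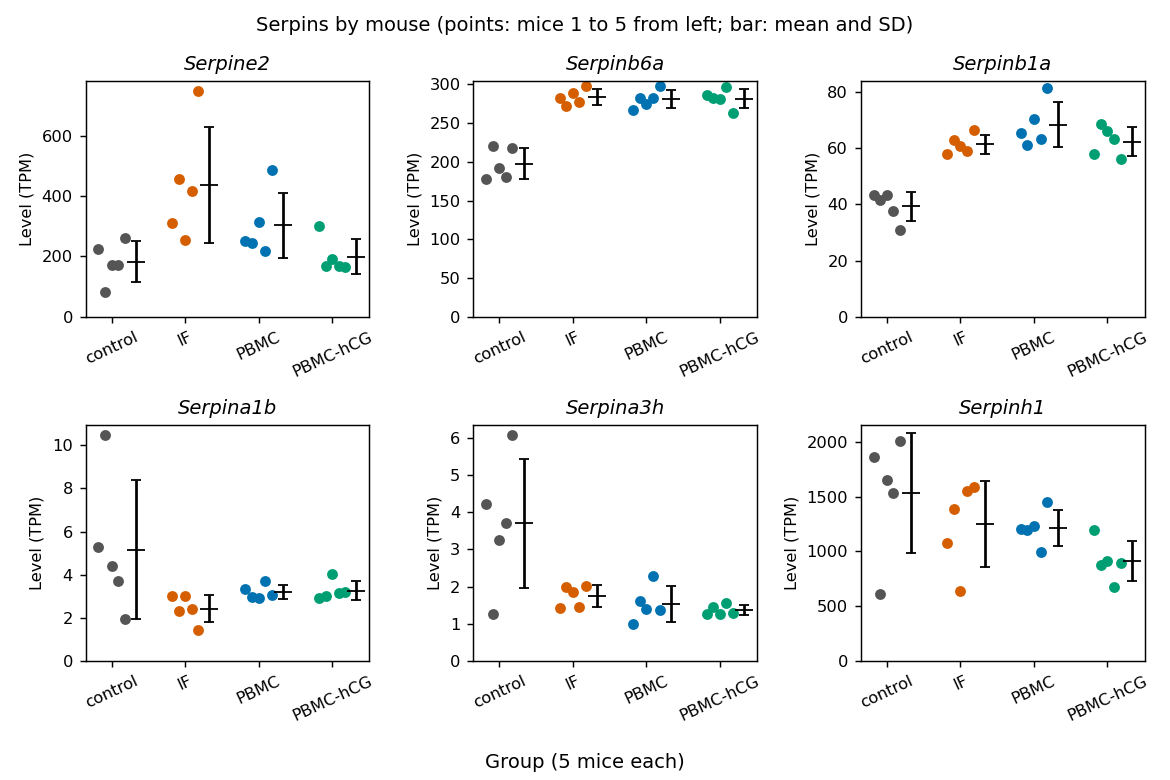
Level in TPM of the 5 serpins called between IF and control and of Serpinh1, the most abundant member, with points for mice 1 to 5 of each group from left to right and a bar for the mean and SD. Serpinb6a and Serpinb1a of the 3 RU486-treated groups lie above all control mice, and Serpine2 is highest in IF. Control replicate 2 (the second control point) is far from the other control points for Serpina1b and Serpinh1 and the lowest of them for Serpina3h.

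Among other clade B members, Serpinb6b rose from 13 ± 2.4 TPM in control to 18.9 ± 3.91 TPM in PBMC (log2 fold change 0.54, adjusted p = 0.0183, and 0.0566 without control replicate 3) and to 19.6 ± 1.52 TPM in PBMC-hCG mice (0.61, adjusted p = 0.00586). In IF it was at 17.5 ± 4.16 TPM and missed the threshold (0.42, adjusted p = 0.0558), which it passed without control replicate 5 or IF replicate 3 or 4 (adjusted p 0.0239, 0.0497 and 0.0474). Serpinb9, the inhibitor of granzyme B that protects cytotoxic cells from their own enzyme, was at 17.9 ± 3, 20.1 ± 3.37, 21.1 ± 2.17 and 20.2 ± 1.22 TPM over the same 4 groups and passed the threshold in no comparison. Serpinb8, an inhibitor of furin, was at 5.57 ± 0.87, 4.95 ± 0.81, 5.3 ± 0.931 and 5.58 ± 0.715 TPM and was called in none either.

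Serpinb9b, a close relative of Serpinb9, was at 0.185, 0, 0.287, 0.32 and 5.34 TPM in control and 0.796, 1.63, 0.342, 1.54 and 3.9 TPM in IF mice, so that replicate 5 was the highest in both groups. It was at 0.381 to 1.1 TPM in PBMC and 0 to 0.656 TPM in PBMC-hCG mice. Serpinb1c, a paralog of Serpinb1a singled out after its values were seen, was listed at 0 in 7 libraries and so was outside the filter. Its 5 IF values, 0.282, 0.447, 0.233, 0.494 and 0.438 TPM, lay above all control values (0 to 0.224 TPM) and all PBMC-hCG values (0 to 0.185 TPM), while PBMC mice held 0 to 0.492 TPM. In the limma fit without a filter it was called between IF and control (log2 fold change 1.62, adjusted p = 0.0226) and between PBMC-hCG and IF (-1.75, adjusted p = 0.0482). Its levels lie near the bottom of the table, and the reads behind them are not known.

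Members chosen for roles other than protease inhibition ranged from the most abundant serpin to genes at 0, and none was called with all mice. Serpinh1 encodes HSP47, the chaperone of procollagen in the endoplasmic reticulum (NCBI gene 12406, chr7:99345375-99353239). It was at 1859, 614, 1654, 1534 and 2008 TPM in control, 1080, 1388, 641, 1554 and 1584 TPM in IF, 1207, 1196, 1235, 991 and 1451 TPM in PBMC and 1197, 877, 916, 675 and 896 TPM in PBMC-hCG mice. Control replicate 2 and IF replicate 3 were the lowest, and Col1a1 was lowest there within each of these groups, at 665 and 1204 TPM.

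Between PBMC-hCG and control the log2 fold change of Serpinh1 was -0.66 (SE 0.28, adjusted p = 0.0759), and without control replicate 2 it was -0.97 (SE 0.21, adjusted p = 0.00173). Between PBMC-hCG and IF it was -0.41 (95% interval -0.99 to 0.18, adjusted p = 0.308). Serpinf1, or pigment epithelium-derived factor, a secreted inhibitor of vessel growth, was at 276 to 400 TPM in all mice. It was not called between IF and control (-0.14, adjusted p = 0.235), but without control replicate 2, where it was lowest at 276 TPM, it was lower in IF by -0.24 (adjusted p = 0.00412) and in PBMC by -0.18 (adjusted p = 0.0224).

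Serpinb5, or maspin, an epithelial serpin, was at 0.598, 0.961, 0.129, 0.556 and 0.66 TPM in IF and 0.191, 0.14, 0.262, 0.165 and 0.258 TPM in PBMC-hCG mice. All IF mice but replicate 3 lay above all PBMC-hCG mice. The log2 fold change was -1.03 (SE 0.37, adjusted p = 0.0631), and -0.90 against PBMC (adjusted p = 0.285), so neither was called. Without IF replicate 3 the difference from IF was -1.38 (adjusted p = 0.0106), and without control replicate 2 it was lower than in control (adjusted p = 0.0432). Serpina6 and Serpina7, the plasma carriers of corticosteroids and thyroid hormone, and Serpina12, the adipose hormone vaspin, were listed at 0 in every library.

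Protease inhibitors of other families, from a list of 44 genes with 25 tested, had 10 called between IF and control (40%), 4 higher and 6 lower, and 4 called between PBMC-hCG and IF (16%), beside 21.9% and 13.6% of all genes. Limma called none between PBMC and IF or between PBMC-hCG and PBMC, where 1 and 4 had an unadjusted p under 0.05, beside 6.79% and 16.2% of all genes. Pi15, which encodes a secreted peptidase inhibitor, fell from 54.4 ± 5.57 TPM in control to 10.3 ± 1.55 TPM in IF mice (SD, n = 5 each; log2 fold change -2.39, SE 0.12, adjusted p = 1.47e-10). Slpi, the secretory inhibitor of leukocyte elastase, fell from 13.4 ± 3.13 to 8.19 ± 1.66 TPM (-0.69, adjusted p = 0.0135) and was at 14 ± 3.78 TPM in the PBMC-hCG group, higher than in IF by 0.75 (adjusted p = 0.0292). The calls of this list between PBMC-hCG and IF were all lost without IF replicate 5 or PBMC-hCG replicate 3, where 0% of all genes were called. The broad inhibitor A2m was higher in IF than in control by 1.69 (adjusted p = 0.00421).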

How the data were processed

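Uterine RNA of 20 mice was compared in 4 groups of 5, assigned from the sample labels. The authors deposited TPM values, made, per the labels and the paper's methods, from stranded mRNA libraries by trimming with Trimmomatic, alignment to mm10 with HISAT2 and assembly with StringTie. Versions are not given in the sources used here. Totals per library are fixed, so depth and counting error are unknown. The authors tested counts with edgeR, which TPM do not allow. In its place log2(TPM + 0.1) of the 18706 genes above 0 in all 20 libraries was fitted with limma 3.58.1 (trend, all groups together) in R 4.3.3, and the fit was tested on simulated data. The pseudocount draws the fold changes of low genes toward 0.

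Members, lists and named genes were chosen with earlier results of these data known. Named genes were serpins called in 1 of the 4 comparisons among IF, control and cell groups with a mean of at least 1 TPM, members listed by role, and the 5 highest. The pattern for symbols also matches Serping1, which was left out. 1 tested member is counted but not reported here. Gene positions come from RefSeq (GRCm38.p6), sequences from RefSeq and GENCODE vM21. The labels name no batch. Alternatives were other pseudocounts, filters, scaling, fits, thresholds and each mouse left out.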

Additional observations from a re-analysis of the deposited data

Results flagged for a closer look

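Among the named serpins above 0 in all libraries, 15 genes in 4 groups gave 60 sets of 5 mice, and in 6 of them the highest or lowest mouse stood apart on the log2 scale by a gap to its neighbour of more than 0.71 of the whole range of the set. Chance alone gives about 1 set in 20. In control replicate 2, Serpina1a was high (5.91 TPM, gap 0.768 of the range), and Serpinh1 (614 TPM, 0.773) and Serpinf1 (276 TPM, 0.79) were low. That library is also the one with Adipoq at 42.1 TPM and the lowest Col1a1. Serpina3n was high in control replicate 5 (294 TPM, 0.716). Serpini1 was low in PBMC replicate 5 (4.8 TPM, 0.725). Serpine2 was high in PBMC-hCG replicate 1 (302 TPM, 0.765), and without that mouse the log2 fold change of Serpine2 between PBMC-hCG and IF was -1.24 (adjusted p = 0.016).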

How the results depend on the processing

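For IF versus control, 5 serpins were called by limma, 3 in a fit on those groups only (beside 13.2% of all genes), 11 with library weights (33.4%) and 2 by the fold change rule (2-fold, raw p under 0.05). With each mouse left out there were 3 to 7 (17.8% to 26.8% of all genes), with 3 without control replicate 1 or 3. For PBMC-hCG versus IF, 1 was called, 5 with library weights (43.2% of all genes), 2 by the fold change rule and 0 to 2 with a mouse left out. There were 0 without IF replicate 2, 4 or 5 or PBMC-hCG replicate 2, 3, 4 or 5, where 0% to 0.182% of all genes were called. There were 2 without IF replicate 3 (27.1% of all genes) or PBMC-hCG replicate 1 (22.3%). For PBMC-hCG versus control, 5 were called, 8 after quantile normalization (32.1% of all genes), 10 with library weights (51.1%) and 2 by the fold change rule. With a mouse left out there were 5 to 9 (25.4% to 40.2% of all genes), with 9 without control replicate 2 (40.2%). For PBMC versus control, 6 were called, 4 in a fit on those groups only (13.5% of all genes), 9 with library weights (36.4%) and 2 by the fold change rule. With a mouse left out there were 4 to 7 (15.8% to 24.7% of all genes). PBMC versus IF and PBMC-hCG versus PBMC gave 0 serpins under every alternative run. At an adjusted p under 0.05, up to 0.182% and 7.81% of all genes were called there, both with library weights. With Serping1 included, the summed level moved from 2427 to 3032 TPM, which is the level of Serping1 itself being added. The cause of the shifts in the counts was not tested.

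Over 17 calls of a serpin in a comparison, none reversed in 309 alternative values, 43 values lost the call and 10 calls held in all. These values do not include the fold change rule. Serpinb6a, Serpinb1a, Serpinb6b and Serpini1 differed from control by less than 2-fold and so did not pass that rule. Without control replicate 5, Serpina9 was also called lower in IF (-1.52, adjusted p = 0.0203) and PBMC-hCG (-1.34, adjusted p = 0.0324), and Serpina1b in PBMC (-0.77, adjusted p = 0.0395) and PBMC-hCG (-0.74, adjusted p = 0.034). Replicate numbers share no animal, and 8 of 30 same-numbered pairs had deviations correlated above 0.1. With the replicate block, 7 serpins were called in IF versus control (22.2% of all genes), 6 in PBMC versus control (19.4%) and 5 in PBMC-hCG versus control (32.5%). In PBMC-hCG versus IF 1 was called (17.2%), and none in PBMC versus IF (0%) or PBMC-hCG versus PBMC (0.0107%). Of the 20 libraries, 2 correlated best with their own number. Unknown depth limits what can be said of members below 1 TPM.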
